A study of Mus musculus with 16 samples.

Results

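The cytosolic ribosomal protein genes, whose products build the small (40S) and large (60S) subunits of the ribosome, were followed in mouse ES cells and embryoid bodies with and without Taf4a. Members were the genes whose symbol is Rpl or Rps with a number, together with Rplp0, Rplp1, Rplp2 and Rpsa. Symbols of pseudogenes and of the Rps6k kinases were left out. The rule found 84 of 27807 genes, and all 84 passed the filter on low values (a mean of at least 10 normalised counts) that left 16124 genes for testing. They comprised 31 genes of the small subunit, 43 of the large subunit, 3 of the P-stalk and 7 paralogues, which are second copies of a core gene under a gene name of their own.

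Poly-A RNA was sequenced from 16 libraries in 8 groups of 2. WT is the label for Taf4+/+ and KO the label for Taf4-/-, a null allele of Taf4a that lacks exons 11 and 12, the gene for a subunit of the general transcription factor TFIID. The stages were ES cells, grown on mouse embryonic fibroblast feeders, and embryoid bodies, floating aggregates of differentiating cells. The bodies were taken ahead of retinoic acid (EB4), once 1 day of it had passed (EB5), and at a late point of the treatment (EB8). All lines were derived from blastocysts of heterozygous crosses of C57Bl6J mice, with 2 independent lines per genotype, and nothing in the labels ties a replicate number to a line. The p-values measure the spread between these libraries only. Values are normalised counts, the reads of a gene divided by the size factor of its library.

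Depth ran from 22442118 to 40711826 reads per library, with every ES library deeper than every embryoid body library, so that the change from ES and sequencing depth cannot be told apart. The depths of EB4, EB5 and EB8 overlapped. Taf4a itself was listed at 1591 to 1960 normalised counts in the WT libraries and 1973 to 2400 in the KO libraries. The row counts the whole gene and cannot show a loss of 2 exons, so it does not check the labels, and WT and KO stand for labels throughout. Of the markers at EB8, 4 of 5 pluripotency genes were higher in KO, whereas 2 of 4 neural progenitor, 3 of 3 neuronal and 2 of 2 endoderm genes tested were lower. Of all genes tested 10.4% were higher and 12.5% lower there. Of 6 fibroblast markers (feeder cells) 0 passed limma's test between genotypes at any stage, but in ES cells 5 of 6 were lower in KO, with a median log2 difference of -2.15. Col1a1 was at 662 and 1451 normalised counts in WT ES cells and 119 and 170 in KO ES cells, without overlap. The summed level of the 6 markers was 1032 and 2649 in WT ES cells against 209 and 493 in KO ES cells, and 2075 and 2757 against 877 and 3134 at EB8, and 0 of the 6 was at 0 in any library. At EB4 and EB5 the sums were 890 to 2230 in WT and 450 to 1021 in KO, below WT without overlap at each of these stages. In such bulk samples fewer cells of a type and less RNA per cell cannot be told apart.

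Ribosomal proteins are made in near equal numbers, and their genes are among the most strongly expressed in any growing cell. Their messages typically start with a cytosine followed by a run of pyrimidines, the 5′ terminal oligopyrimidine (TOP) tract, through which translation of the whole class is adjusted to growth signals. Many of the genes have short promoters with GC boxes and ETS sites and no TATA box. Mutations in single members such as Rps19, Rpl5 and Rpl11 cause Diamond-Blackfan anaemia in humans, and free Rpl5 and Rpl11 bind Mdm2, the inhibitor of p53.

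RefSeq start sites (GRCm38.p6) were matched by symbol for 62 of the 84 genes, in 74 windows of 250 bases before to 50 bases after the start. Among the 66 windows of 56 core genes, 30 (45.5%) had a run of at least 6 pyrimidines that held the start or lay within 5 bases of it, against 21.0% of all 32851 windows. A cytosine at the start followed by at least 4 more pyrimidines was found in 13 core windows (19.7%) and in 2.51% of all windows. The 6 printed first are those with the largest fall in KO at EB8 among the genes of that kind past the threshold (Rplp2, with a larger difference, did not pass), shown so that the tract can be seen at the start itself. The 3 after them are windows of paralogues that were higher in KO at EB8. Rps27l has a further window, which held no such run and is not printed, and Rps4y2 had no window. Each run covers 15 bases before the start and 15 from it, on the strand of the gene, with the pyrimidine run in capitals.
Rpl14: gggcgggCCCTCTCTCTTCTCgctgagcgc
Rps27: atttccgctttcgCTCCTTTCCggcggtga
Rps21: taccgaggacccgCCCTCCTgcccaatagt
Rps6: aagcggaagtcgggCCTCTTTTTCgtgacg
Rpl35: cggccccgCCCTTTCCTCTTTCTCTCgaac
Rps10: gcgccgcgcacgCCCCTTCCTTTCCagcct
Rpl10l: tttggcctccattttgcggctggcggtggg
Rpl39l: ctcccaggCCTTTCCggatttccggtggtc
Rps27l: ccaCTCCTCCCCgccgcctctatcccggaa
The windows lie at chr9:120571502-120571531 (Rpl14, plus strand), chr3:90213634-90213663 (Rps27, minus), chr2:180257364-180257393 (Rps21, plus), chr4:86857353-86857382 (Rps6, minus), chr2:39005117-39005146 (Rpl35, minus) and chr17:27635230-27635259 (Rps10, minus). Those of the paralogues lie at chr12:66284387-66284416 (Rpl10l, minus), chr16:10170213-10170242 (Rpl39l, plus) and chr9:66946071-66946100 (Rps27l, plus).
In the 3 paralogue windows no pyrimidine run began at the start with a cytosine. Those of Rpl39l and Rps27l ended before the start, and that of Rpl10l had none.

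Other short motifs were searched on both strands of the same windows. The ETS core CCGGAAG was in 36.4% of core windows against 8.86% of all windows, AAGATGG (the core of the YY1 site) in 16.7% against 6.34% and the GC box GGGCGG in 60.6% against 35.7%. TATAAA was in 9.09% of core windows and 13.6% of all. These are letter matches. They are descriptions of the windows, and no binding was measured.

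Sequence copies limit what these counts can hold, because ribosomal protein genes have many processed pseudogenes. Of the 54-base windows of the annotated coding transcripts, the read length of these libraries, a median of 58.25% per gene also occurred letter for letter elsewhere in the genome. The share ran from 0 (Rpl3l and Rpl39l among others) to 99.66% (Rps27), with 48 of 83 genes above 50% and 7 below 10%. It was 24.0% for Rpl10l, 16.0% for Rps27l and 14.0% for Rps4y2, all lower than for their core genes Rpl10 (91.0%) and Rps4x (84.4%). Reads of a gene and its identical copies cannot be assigned to one of them from the sequence, so single values of members with a high share are uncertain. Exons of 26 members also overlapped those of another annotated gene, among them small nucleolar RNAs within introns or exons, and the use of strand in counting was not given in the sources used here.

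Per kilobase of coding transcript, and averaged over the 16 libraries, the members differed widely in level. The part of annotated transcript length and of copied sequence in these levels was not tested. The highest were Rpl4 (52387 normalised counts per kb), Rpl32 (48451), Rpl8 (42636) and Rpl23 (37975), all of the large subunit, followed by the P-stalk gene Rplp0 (34224). The small-subunit genes ran from 7103 to 34138 with a median of 22967, and the large-subunit genes from 6551 to 52387 with a median of 16279. The 7103 is that of Rps20, whose mean of 26325 normalised counts was divided by an annotated coding transcript of 3706 bases. The 5 lowest were all paralogues: Rpl3l (19.3), Rpl39l (140), Rpl10l (318), Rpl7l1 (2247) and Rpl22l1 (4697). The other paralogues, Rps4y2 (5422) and Rps27l (9307), lay below or at the low end of the small-subunit range. Their core genes Rpl3, Rpl39, Rpl10, Rpl7, Rpl22, Rps4x and Rps27 were at 17183, 14588, 18642, 22859, 11415, 30892 and 22967 in the same order.

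Together the 84 genes took 4.91% ± 0.23 of all reads in WT ES cells (SD, n = 2 here and below), 4.93% ± 0.547 at EB4, 5.03% ± 0.397 at EB5 and 4.21% ± 0.0832 at EB8. In KO the shares were 4.46% ± 0.0822, 4.35% ± 0.283, 4.29% ± 0.139 and 3.56% ± 0.0869. The WT libraries were at 4.75% and 5.07% in ES cells and at 4.15% and 4.27% at EB8, and the KO libraries at 4.52% and 4.41% in ES cells and at 3.62% and 3.50% at EB8. Both KO libraries were below both WT libraries at ES, EB5 and EB8, and at EB4 the groups overlapped by a narrow margin, with 4.55% in one KO library and 4.54% in one WT library. The ratio of KO to WT was 0.909, 0.883, 0.853 and 0.846 from ES to EB8. It kept below 1 at every stage when any 1 library was left out, with extremes of 0.808 and 0.958. The summed fibroblast markers were also lower in KO from ES to EB5, and their part in the difference of the share was not tested. The share is given without a test, since the members were chosen with results known. The 76 genes of the mitochondrial ribosome, a separate particle, took 0.266% ± 0.00397 of the reads in WT and 0.307% ± 0.0328 in KO at EB8, so that the KO value was not below the WT value there.

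**Figure D1:**
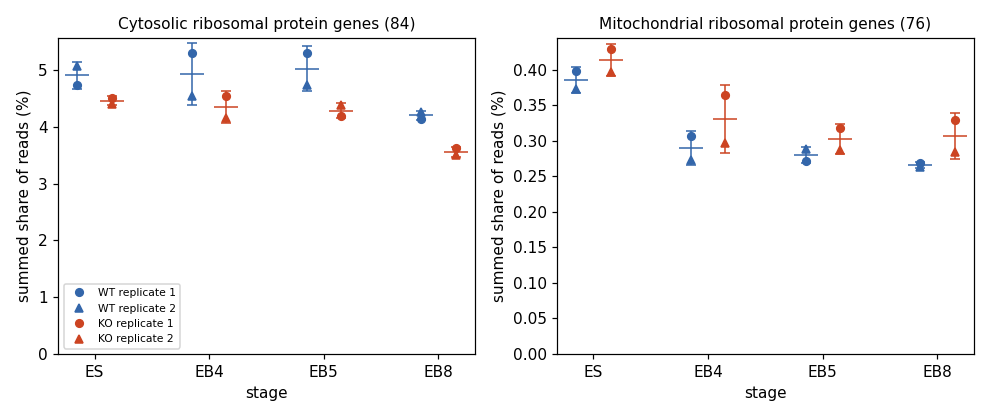
Summed share of reads (percent, axis from 0) in 84 cytosolic (left) and 76 mitochondrial (right) ribosomal protein genes by stage. Points are libraries, horizontal lines group means and bars ± 1 SD (n = 2); the cytosolic share in KO at EB8 was 3.56% against 4.21% in WT, while the mitochondrial share in KO was not below that in WT.

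Between genotypes, members past the threshold were counted at each stage (limma, Benjamini-Hochberg adjusted p over all 16124 genes). They numbered 0, 2, 6 and 41 of 84 from ES to EB8, beside 0.0%, 6.12%, 4.34% and 22.9% of all genes. In ES cells 0 of 84 passed, beside 0.0% of all genes, with a median log2 difference (KO minus WT) of -0.12 over the members and 0.00 over all genes. At an unadjusted p under 0.05 there were 3 members, all lower in KO, beside 11.4% of all genes. edgeR and DESeq2 called 0 members. At EB4 2 members passed, Rps29 and Rps27, both lower in KO, beside 6.12% of all genes in either direction and 3.37% lower. At EB5 5 members were lower and 1 was higher, beside 4.34% of all genes, or 2.17% in each direction. Without any 1 of their own libraries 0 to 3 members passed at EB4 and 0 or 1 at EB5. The differences themselves moved less: over 19 alternatives that of Rps29 at EB5 ran from -0.705 to -0.636 and that of Rps21 from -0.696 to -0.595, and at EB4 that of Rps29 ran from -0.804 to -0.457. The median differences over the members were -0.20 at EB4 and -0.34 at EB5.

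At EB8 41 of 84 members passed, beside 22.9% of all genes. Of these 37 were lower in KO, beside 12.5% of all genes that were lower, and 4 were higher, beside 10.4%. The median was -0.42 over the members and -0.03 over all genes. All 37 that fell were core genes (17 of 31 small-subunit, 19 of 43 large-subunit and 1 of 3 P-stalk genes), and all 4 that rose were paralogues. The median was -0.46 for the small and -0.42 for the large subunit. Both KO libraries lay below both WT libraries at EB8 in 61 of 77 core genes, where 33.5% of all genes did so. They lay above in 0 of 77, beside 30.4% of all genes. Leaving out any 1 EB8 library left between 16 and 18 members past the threshold, and a fit of only the EB8 libraries left 19. Rescaling by the upper quartile moved the median of all genes at EB8 from -0.03 to 0.11 on the log2 scale. It left 15 members lower and 5 higher, with the members' median still 0.39 below that of all genes, as in the original scaling.

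**Figure D2:**
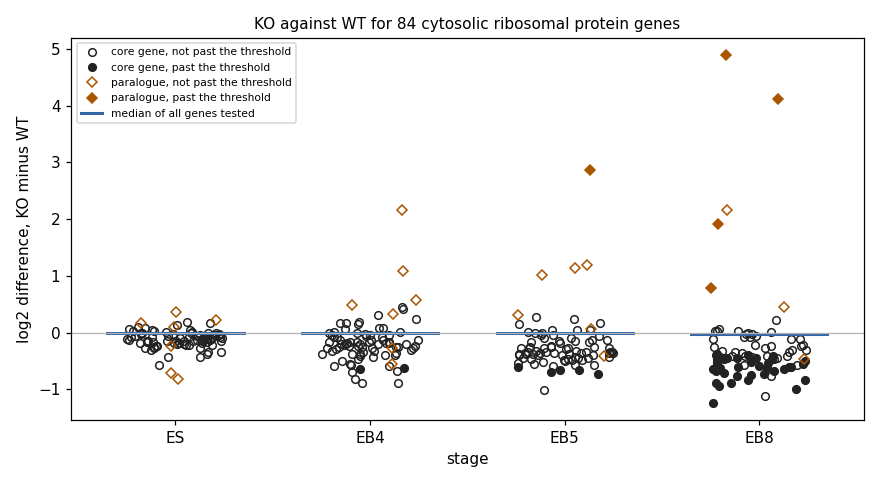
Log2 difference (KO minus WT) of the 84 genes at each stage. Circles are core genes, diamonds paralogues, filled where the adjusted p was under 0.05, and the blue line is the median of all 16124 genes tested; at EB8 the filled circles all lie below 0 and the filled diamonds all above it.

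Rps29, a small zinc-binding protein of the 40S head, passed the threshold as lower in KO at 3 of the 4 stages. Its WT libraries were at 11636 and 9925 normalised counts in ES cells, 11061 and 8695 at EB4, 9544 and 9609 at EB5 and 7813 and 8683 at EB8. The KO libraries were at 8145 and 7815, 7015 and 5717, 5872 and 5963, and 4906 and 4069. KO lay below WT without overlap at every stage. The log2 differences were -0.63 ± 0.16 (SE, limma adjusted p = 0.0411) at EB4, -0.69 ± 0.16 (adjusted p = 0.0347) at EB5 and -0.88 ± 0.16 (adjusted p = 0.00234) at EB8.

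Rps27, a 40S protein of the solvent side, had WT values of 8964 and 7557 in ES cells, 11598 and 8970 at EB4, 11664 and 9195 at EB5 and 9539 and 9091 at EB8. In KO they were 6810 and 6155, 6574 and 6755, 6176 and 6259, and 5326 and 6144. The groups did not overlap at any stage, and the log2 difference was -0.61 ± 0.16 at EB4 (limma adjusted p = 0.0471), -0.74 ± 0.16 at EB5 (0.0302) and -0.70 ± 0.16 at EB8 (0.00926). With 99.66% of its windows shared, the count of Rps27 is among the least certain.

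Rps21, another small 40S protein, stood at 8104 and 10466 normalised counts in the WT libraries of EB8. The KO libraries were at 6140 and 5458, with no overlap. The log2 difference was -0.65 ± 0.15 at EB5 (limma adjusted p = 0.0347) and -0.67 ± 0.15 at EB8 (adjusted p = 0.00791). Rpl15, a 60S protein, had EB5 values of 10540 and 9407 (WT) and of 6684 and 6393 (KO), a log2 difference of -0.61 ± 0.15 (limma adjusted p = 0.0384). These genes shared the pattern of Rps29, with both KO libraries below both WT libraries.

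Among the larger falls at EB8 were those of Rpl27a and Rpl13 of the large subunit and of Rps26. Rpl27a was at 14086 and 10822 normalised counts (WT) and at 8174 and 4635 (KO), with a log2 difference of -1.0 ± 0.32 (limma adjusted p = 0.0395). Rpl13, a further 60S protein, had 16972 and 12274 for WT and 8825 and 6494 for KO, a log2 difference of -0.93 ± 0.31 (limma adjusted p = 0.048). Rps26, which lines the mRNA exit channel, had 14569 and 11235 for WT and 8602 and 5618 for KO, a log2 difference of -0.88 ± 0.29 (limma adjusted p = 0.0431). The WT replicates of these 3 genes differed more from each other than those of Rps29 did. Their calls depended on the processing: Rpl27a lost the threshold in 11 of 19 alternatives, Rpl13 in 13 and Rps26 in 12, against 1 for Rps29 at EB8. The differences kept their sign, from -1.41 to -0.595 for Rpl27a, -1.16 to -0.697 for Rpl13 and -1.19 to -0.573 for Rps26.

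Rpl13 lies on chromosome 8, and its WT embryoid body libraries numbered 1 stood above those numbered 2 at each stage. They were at 23718 against 12888 at EB4 and at 21880 against 13171 at EB5. The median level of all genes of chromosome 8 was 0.40 to 0.41 (log2, relative to the mean of the 16 libraries) in these 3 WT libraries and between -0.16 and 0.03 in the other 13. The X chromosome stood at 0.35 to 0.54 in WT ES replicate 2 and the 4 KO libraries numbered 2, and at or below -0.15 in the others. Among the 4 members on X, Rpl39 was at 14590 in WT ES replicate 2 against 7770 in replicate 1, and in KO at 13407, 15166, 12842 and 10825 in the libraries numbered 2 against 7549, 6619, 5781 and 4616 in those numbered 1. Chromosome 11, with 7 members, stood at 0.18 to 0.28 in the KO libraries numbered 1 and at no more than 0.03 in all others. Replicates also differed on other chromosomes. At WT EB4 Rpl27a (chromosome 7) was at 18670 in replicate 1 against 11431 in replicate 2, and Rps26 (chromosome 10) at 19930 against 12325. Other members had the reverse order, such as Rplp0 (chromosome 5) at 24289 against 37435. Outside chromosomes 8, 11 and X, 34 of 64 core genes fell at EB8 with a median of -0.45, a count that still holds such replicate differences. Without the 3 WT libraries 16 members fell and 4 rose at EB8.

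**Figure D3:**
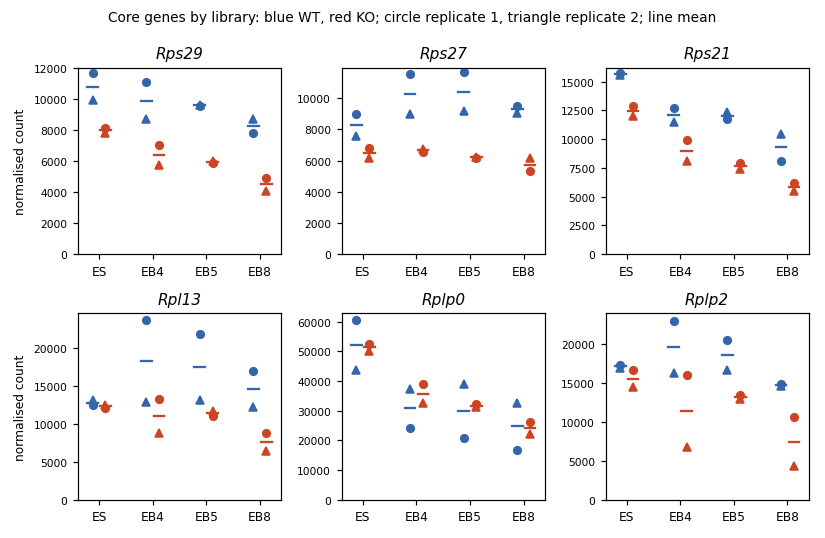
Normalised counts (linear axes from 0) of 6 core genes by stage and library. Rps29, Rps27 and Rps21 show both KO libraries below both WT libraries at EB8; Rpl13 shows the WT embryoid body libraries numbered 1 above the rest, and Rplp0 and Rplp2 show replicates far apart.

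The falls at EB8 were found in genes with little and with much copied sequence. Of 29 core genes with at most 50% of windows elsewhere, 15 fell, with a median of -0.42, and of 47 with more than 50%, 22 fell, with a median of -0.46. Across 76 core genes Pearson's r between the shared percentage and the log2 difference was -0.01 and Spearman's rho -0.04, as a description over genes that share libraries. Of the 8 core genes with under 20% shared windows, 5 fell, with a median of -0.41, among them Rps3 of the 40S head and Rpl8 of the 60S centre. Rps3 changed by -0.41 ± 0.13 (limma adjusted p = 0.0371) with 2.94% of its windows shared, and Rpl8 by -0.53 ± 0.17 (adjusted p = 0.0387) with 7.42%. Rps3 was named after its values were seen.

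**Figure D4:**
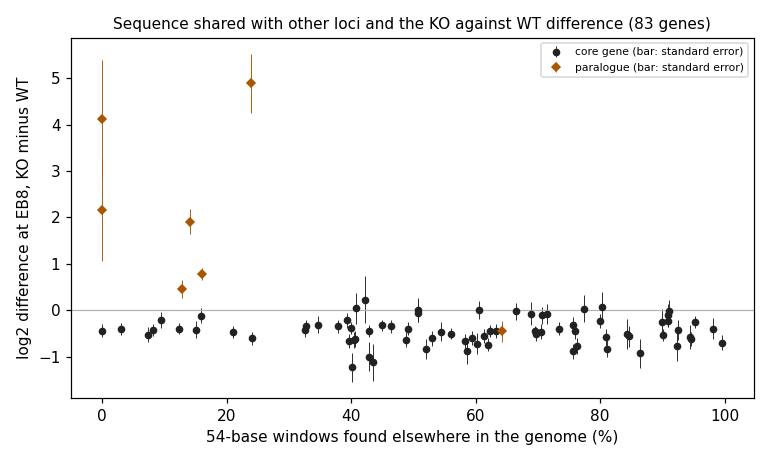
Log2 difference at EB8 (KO minus WT, bars ± 1 standard error) against the percentage of 54-base windows of the coding transcripts that occur elsewhere in the genome, for 83 genes. The core genes (circles) lie mostly below 0 from one end of the axis to the other, and the paralogues above 0 (diamonds) have at most 24.0% of windows elsewhere.

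By start sequence, 10 of 13 core genes with a tract from the first base fell at EB8 (median -0.585) and 18 of 43 other core genes with a window (median -0.417). At EB5 3 of the 13 and 0 of the 43 were lower. These counts are given without a test, as the windows were compared with results known.

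The P-stalk genes, whose acidic products recruit elongation factors to the ribosome, differed from each other. At EB8 the WT libraries of Rplp1 held 13093 and 13715 normalised counts and those of KO 9960 and 6654, a log2 difference of -0.72 ± 0.23 (limma adjusted p = 0.0417). Rplp2 had 14886 and 14634 against 10642 and 4345, where the KO libraries lay far apart and the difference did not pass (-1.12 ± 0.40, adjusted p = 0.06). Rplp0 had 16865 and 32709 against 26334 and 22074, with overlapping groups and a log2 difference of 0.04 ± 0.34. Of the genes of Diamond-Blackfan anaemia, Rpl5 went with 16411 and 15818 against 10921 and 11810 (-0.51 ± 0.12, adjusted p = 0.0117), and Rpl11 with 9332 and 11153 against 7570 and 7964 (-0.39 ± 0.13, adjusted p = 0.0457). Rps19, at 11761 and 13999 against 10137 and 10029, did not pass (-0.35 ± 0.13, adjusted p = 0.0805).

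Of the 7 paralogues, 4 were higher in KO at EB8 and 0 lower. Rpl10l is an intronless copy of Rpl10 known from the testis, on chromosome 12 (67384368 to 67385388, minus strand, NCBIM37). It was at 342 and 572 normalised counts in WT ES cells, 110 and 31.1 at EB4, 87.5 and 29.6 at EB5 and 32.6 and 20.1 at EB8. In KO it was at 387 and 648, 213 and 334, 273 and 518, and 662 and 943. The groups overlapped in ES cells and were apart from EB4 on. From ES to EB8 it changed by -4.06 ± 0.63 in WT on the log2 scale (limma adjusted p = 0.000294), while in KO the change was 0.66 ± 0.63 (adjusted p = 0.442). KO was higher by 2.86 ± 0.63 at EB5 (adjusted p = 0.0296) and by 4.89 ± 0.63 at EB8 (adjusted p = 0.000316), and the stage changes differed by 4.71 ± 0.89 (interaction, adjusted p = 0.0106). Rpl10, the core gene, lies on the X chromosome, and its product completes the 60S subunit. Rpl10 had 8688 and 10128 (WT) against 8458 and 10124 (KO) at EB8 (-0.02 ± 0.24).

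Rps4y2 is the name the files give to a single-exon gene on chromosome 6 (148303178 to 148304120, plus strand), a relative of the X-linked Rps4x. It was at 8021 and 7700 normalised counts in WT ES cells, 4694 and 3035 at EB4, 3349 and 2352 at EB5 and 1262 and 1095 at EB8. KO libraries were at 9237 and 9053, 6998 and 4547, 5766 and 5636, and 5522 and 3536. It fell with stage in both genotypes, with log2 changes of -2.74 ± 0.27 in WT and -1.05 ± 0.27 in KO (limma adjusted p = 1.21e-05 and 0.00949). The difference of the changes was 1.69 ± 0.38 (adjusted p = 0.0217), and at EB8 KO was higher by 1.91 ± 0.27 (adjusted p = 0.000536). Rps4x had 25204 and 23338 (WT) against 13631 and 21136 (KO) at EB8 (-0.52 ± 0.32, adjusted p = 0.266).

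Rps27l, a p53-responsive relative of Rps27, lies on chromosome 9 (66793893 to 66797323, plus strand). It was at 6800 and 6009 normalised counts in WT ES cells and 6832 and 6817 in KO ES cells. The EB8 values were 2504 and 2321 (WT) and 3757 and 4575 (KO), with no overlap. The log2 change was -1.41 ± 0.13 in WT and -0.72 ± 0.13 in KO (limma adjusted p = 9.59e-06 and 0.00152), and these changes differed by 0.69 ± 0.19 (adjusted p = 0.0468). KO was higher at EB8 by 0.78 ± 0.13 (adjusted p = 0.00159), where Rps27 itself was lower.

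Rpl39l, a relative of Rpl39 known from the testis, has no shared 54-base window. It was at 52.8 and 281 in WT ES cells, 34.7 and 5.3 in WT EB8, 37.4 and 126 in KO ES cells and 318 and 213 in KO EB8. KO lay above WT at EB8 (4.12 ± 1.27 on the log2 scale, limma adjusted p = 0.0348), with replicates far apart in WT, and the stage changes did not differ past the threshold (4.95 ± 1.80, adjusted p = 0.113). Rpl39 had 5014 and 7240 (WT) against 4616 and 10825 (KO), with overlapping groups.

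The other paralogues did not pass between genotypes at any stage. Rpl7l1, a relative of Rpl7 named for ribosome assembly, had 4485 and 3482 (WT) against 4970 and 5921 (KO) at EB8 (0.46 ± 0.20, limma adjusted p = 0.116) and fell from ES to EB8 in both genotypes, with log2 changes of -0.93 ± 0.20 and -0.84 ± 0.20. Its core gene Rpl7 had 23144 and 19835 against 13812 and 15376 (-0.56 ± 0.15, adjusted p = 0.0175). Rpl22l1, a relative of the RNA-binding protein Rpl22, had 1851 and 2661 against 1482 and 1763 (-0.46 ± 0.22, adjusted p = 0.154), beside -0.42 ± 0.12 for Rpl22 (adjusted p = 0.0283). Rpl3l, a muscle relative of Rpl3, had 12.6 and 7.4 against 48.5 and 45.8 (2.17 ± 1.11, adjusted p = 0.182), and Rpl3 had 20429 and 22553 against 18900 and 17504.

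**Figure D5:**
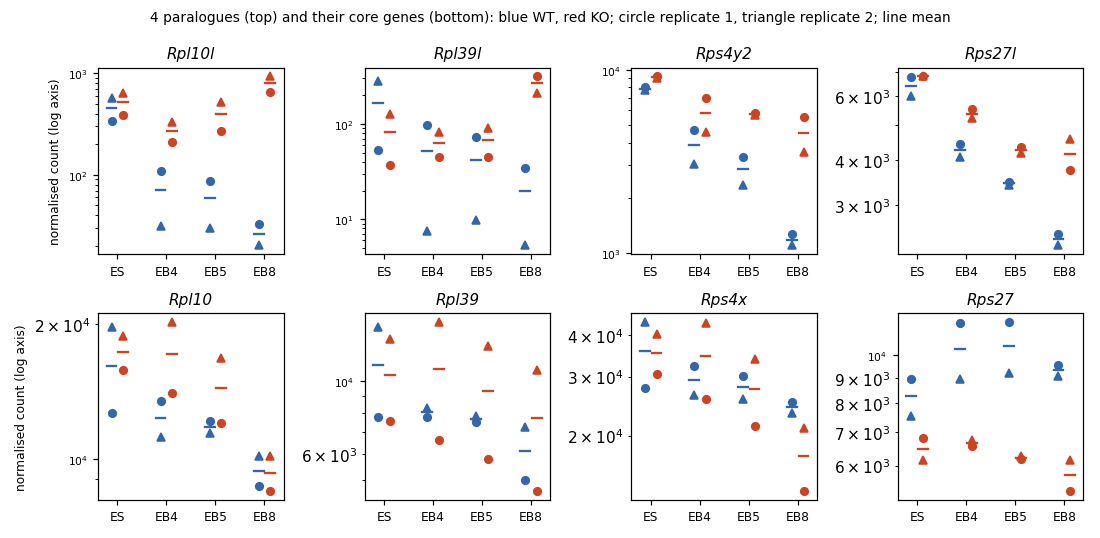
Normalised counts (log axes) of 4 paralogues, top, and their core genes, bottom, by stage. At EB8 both KO libraries lie above both WT libraries for each paralogue, and in ES cells the groups overlap or lie close together.

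From ES to EB8, no member was past the threshold upwards in either genotype. In WT 25 of 84 fell, beside 46.8% of all genes past the threshold and 22.8% that fell, with a median of -0.32 over the members. In KO 50 fell, beside 37.7% past the threshold and 18.0% that fell, with a median of -0.59. Against EB4 the falls numbered 8 in WT (27.2% of all genes past the threshold, 12.2% lower) and 38 in KO (18.5% and 8.67%), with medians of -0.31 and -0.52. Both comparisons of a genotype share its EB8 libraries, as the genotype comparison at EB8 does. In WT the chromosome levels of ES cells and embryoid bodies differed. X stood at 0.47 in WT ES replicate 2 and from -0.25 to -0.16 in the WT embryoid body libraries. Chromosome 8 stood at -0.15 and -0.16 in WT ES cells and at 0.40 to 0.41 in the WT embryoid body libraries numbered 1. The part of such differences in the WT changes from ES, and in the interaction from ES, was not tested. Leaving out 1 library gave 16 to 21 falls in WT and 28 to 41 in KO from ES, and against EB4 2 (without WT EB4 replicate 1) to 22 (without WT EB4 replicate 2) in WT and 9 to 12 in KO. Quantile normalisation, which gives all libraries 1 distribution, took most of these changes away: the members' median from ES to EB8 became -0.05 in WT, with 10 lower and 5 higher, and -0.17 in KO, with 8 lower. Against the median of all genes the members' median then stood at 0.04 in WT and -0.09 in KO. Rescaling by the total of non-members moved the median of all genes in KO from 0.02 to 0.31 and left 22 members lower there.

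In WT the largest falls from ES to EB8 among core genes were those of Rpl27 and Rplp0. Rpl27, of the 60S subunit, was at 9800 and 14633 normalised counts in ES cells and 4965 and 5500 at EB8 (-1.20 ± 0.25, limma adjusted p = 0.00184). Rplp0, which anchors the P-stalk, was at 60637 and 43745 in ES cells and 16865 and 32709 at EB8 (-1.13 ± 0.34, adjusted p = 0.0153). In neither gene did the groups overlap.

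In KO the P-stalk led, with log2 changes of -1.26 ± 0.23 for Rplp1, -1.19 ± 0.40 for Rplp2 and -1.09 ± 0.34 for Rplp0 (limma adjusted p = 0.00144, 0.0315 and 0.0227). Rps21 and Rps9, a 40S protein of early assembly, changed by -1.10 ± 0.15 and -1.08 ± 0.14 (adjusted p = 0.000263 and 0.000196). Rps9 was at 35319 and 33349 in KO ES cells and 16317 and 16137 at EB8, against 39850 and 34766 and then 22986 and 26397 in WT.

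Between EB4 and EB8 the paralogues Rps4y2 and Rps27l fell in WT, with log2 changes of -1.68 ± 0.27 and -0.82 ± 0.13, followed by Rps2 (-0.70 ± 0.21), Rplp1 (-0.67 ± 0.23) and Rpl6 (-0.50 ± 0.16). Rps2 forms the mRNA entry channel and was at 27344 and 28308 at EB4 and 14954 and 19706 at EB8. In KO the largest falls were of Rps4x (-0.98 ± 0.32), Rpl10 (-0.86 ± 0.24), Rpsa (-0.74 ± 0.16), Rplp1 (-0.72 ± 0.23) and Rpl14 (-0.71 ± 0.14). Rpsa, which is also known as a laminin receptor, was at 18984 and 19900 in KO EB4 and 11534 and 11812 at EB8. The limma adjusted p-values of these genes ran from 0.000744 to 0.0496, and the first 2 in KO are on the X chromosome.

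The test of whether the stage change differed between genotypes passed for few members. From ES to EB8 it passed for Rpl10l, Rps4y2 and Rps27l, all positive, beside 7.29% of all genes and 3.85% in that direction. Only 1 member passed without either KO ES library, without WT ES replicate 2 or without WT EB8 replicate 2. Among the 77 core genes limma and edgeR called 0 and DESeq2 called 2. An unadjusted limma p under 0.05 was found in 9 of the 77, all more negative in KO, beside 25.1% of all genes. The median over the core genes was -0.33. From EB4 to EB8 the test passed for 0 of 84 members by limma and by edgeR and for 2 by DESeq2, beside 2.75% of all genes by limma. There 6 members had an unadjusted limma p under 0.05, beside 16.5% of all genes. With the replicate number as a block within each genotype, the interaction from ES to EB8 passed for 5 members, 3 positive and 2 negative. With that block 27 rather than 13 members had an unadjusted p under 0.05, beside 4857 rather than 4045 of all 16124 genes.

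Outside the rule, 4 gene names encode further parts of the ribosome, and at EB8 1 of these 4 was lower in KO. Fau, the source of the 40S protein eS30, changed by -0.80 ± 0.16 (limma adjusted p = 0.00394), Gnb2l1 (Rack1) by -0.41 ± 0.18 and Rpl36al by 0.09 ± 0.19. A list of 18 other translation genes was chosen by name as of the TOP class, and their start sequences were not examined one by one. Of these 18, 11 were lower in KO at EB8 and 0 higher (median -0.60), beside 12.5% of all genes lower and 10.4% higher. Among the 11 were Hnrnpa1 (-1.32 ± 0.15), Eif3f (-1.04 ± 0.16), Eif4b (-0.82 ± 0.15) and Eef1b2 (-0.64 ± 0.15). Eef1a1, the most abundant of the 18, changed by -0.63 ± 0.22 (limma adjusted p = 0.0583). Of 45 ribosome biogenesis genes tested 1 was lower (Taf1d) and 1 higher (Nat10) at EB8, with a median of 0.01. From ES to EB8 39 of the 45 fell in WT and 43 in KO, beside 22.8% and 18.0% of all genes. Of 75 mitochondrial ribosomal protein genes tested 4 were higher and 0 lower in KO at EB8 (median 0.02), whereas from ES to EB8 40 fell in WT and 42 in KO.

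In the Myc family, transcription factors with many targets in ribosome production, 3 of 8 genes were lower in KO at EB8 and 0 higher. Of all genes 12.5% were lower and 10.4% higher. Mycn had 3503 and 4027 normalised counts (WT) against 1278 and 973 (KO) (-1.75 ± 0.37, limma adjusted p = 0.00528), Mycl1 had 4199 and 5811 against 571 and 674 (-2.99 ± 0.34, adjusted p = 0.000151), and Mxd3, an antagonist of Myc, changed by -1.09 ± 0.31 (adjusted p = 0.0231). Myc itself, at 845 and 530 against 329 and 237, did not pass (-1.26 ± 0.65, adjusted p = 0.188). The part of these genes, of the pluripotency and neuronal genes or of the cell mixture in the levels of the ribosomal protein genes was not tested.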

How the data were processed

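Poly-A RNA of 16 libraries was sequenced by the authors as single-end reads of 54 bases. The labels and the submitters' processing notes name TopHat2 2.0.10, HTSeq 0.5.4p3, DESeq2 1.0.19 and build mm9. Each deposited value is a normalised signal, namely the reads of a gene over the size factor of its library. Within a tolerance of 0.001 reads, 100% of the values in each library were whole multiples of 1 step, so that whole reads were recovered. Which annotation was counted, and whether by strand, is not given in the sources used here.

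The members, lists and tests were chosen with earlier results of these data known. Values were tested with limma 3.58.1 on log2(normalised count + 1) with a mean per group over all 16 libraries and a trended prior (8 residual and 4.27 prior degrees of freedom). The fit treats the 16 libraries as independent. Replicate differences recurred between stages of a genotype, so the spread may rest on fewer independent values than these 8. The standard errors and p-values between genotypes may then be too small. The filter was a mean of 10 or more, with p-values adjusted by Benjamini-Hochberg over these 16124 genes, with a threshold of 0.05. Fold changes of low genes are understated on this scale. edgeR 4.0.16 and DESeq2 1.42.0 on recovered reads were alternatives, called from R 4.3.3. Of the tests, limma, edgeR and DESeq2 were run on simulated counts for KO against WT at EB8 only. Python 3.11.15 was used otherwise.

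Genes named singly were the paralogues with their core genes, the 5 largest rises and falls past the threshold in each comparison, the P-stalk genes, the 5 highest and lowest per kilobase, and Rps19, Rpl5 and Rpl11. Coordinates of genes are from GENCODE M1 on NCBIM37 (mm9), in which 27603 identifiers were found and 204, with Rpl41, were not. Transcript length was the median over annotated coding transcripts. Promoter windows are RefSeq's on GRCm38.p6. Replicates differed by more than counting noise in every group. Some genes that this naming rule covers are not reported here.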

Additional observations from a re-analysis of the deposited data

Results flagged for a closer look

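In Rpl10l, Rps4y2 and Rps27l the change from ES to EB8 differed between genotypes in the interaction test, by 4.71, 1.69 and 0.69 on the log2 scale (KO change minus WT change). Over the alternatives the adjusted p ran from 4.14e-06 to 0.143 for Rpl10l, from 0.000877 to 0.205 for Rps4y2 and from 0.00317 to 0.389 for Rps27l.

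Rows named as ribosomal protein pseudogenes lie outside the members. They took 0.0279% of the reads in WT EB5 replicate 1, and between 0.021% and 0.0279% in the 3 WT embryoid body libraries numbered 1, against 0.00205% to 0.00373% in the other 13 libraries. In these 3 libraries 5 of the 153 named rows were more than 10 times above their highest value elsewhere. Rpl3-ps1 was at 2796, 2714 and 2165 normalised counts from EB4 to EB8 against at most 7.5 elsewhere, and Rps15a-ps8 at 2120, 2209 and 1862 against at most 12.5. Rps13-ps1 was at 730, 737 and 515 against at most 3.6. The same 3 libraries had the raised level on chromosome 8.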

How the results depend on the processing

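Counts below are members past the threshold; the cause of each change was not tested. With DESeq2 they were 5 at EB4, 20 at EB5, 21 for EB8 against EB4 in WT, 6 and 2 for the interactions from ES and from EB4. With edgeR there was 1 at EB4. In fits of only the compared groups they were 0, 0 and 19 at EB4, EB5 and EB8 (KO against WT), 10 from ES in WT, and 2 and 9 from EB4 in WT and KO. Without a filter on low values they were 0 at EB4, 2 at EB5 and 4 from EB4 in WT. Upper-quartile rescaling gave 1 at EB4, 20 at EB8 and 17 from EB4 in WT. Rescaling by the total of non-members gave 24 at EB8, 22 from ES in KO, and 4 and 6 from EB4 in WT and KO. Quantile normalisation gave 20 at EB8, 15 and 8 from ES in WT and KO, 2 and 0 from EB4, and 1 for the interaction from EB4. Under quantile normalisation the change of Rpl5 from ES to EB8 in KO turned to 0.0804 from -0.43.

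Leaving out 1 library gave 0 to 0 members at ES, 0 to 3 at EB4, 0 to 1 at EB5, 16 to 18 at EB8, 16 to 21 and 28 to 41 from ES in WT and KO, 2 to 22 and 9 to 12 from EB4, and 1 to 2 and 0 to 0 for the interactions from ES and EB4. An arm left with 1 library is assumed to vary like the others. For the ratio of summed shares the ranges were 0.88 to 0.94, 0.819 to 0.958, 0.808 to 0.903 and 0.832 to 0.861 from ES to EB8, and the alternatives without the most abundant genes moved it by less than its spread. Chosen after seeing the data, leaving out all KO libraries numbered 1 gave 1, 0 and 9 at EB4, EB5 and EB8, 8 from ES and 0 from EB4 in KO, 3 from EB4 in WT and 0 for the interaction from ES. Leaving out those numbered 2 gave 0, 0 and 2 (2 higher and 0 lower, with the members' median at EB8 still -0.41), 16 and 3 from ES in WT and KO, 4 and 0 from EB4, and 0 for that interaction. Leaving out the WT embryoid body libraries numbered 1 gave 1, 1 and 20, and 2 from EB4 in WT.

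The replicate numbers share no stated line or day. The correlation across all 16124 genes of the replicate differences between WT and KO was 0.335, -0.0575, -0.209 and -0.133 from ES to EB8. Within a genotype the numbers went together more: it was 0.523 to 0.605 between the WT embryoid body stages, -0.179 to -0.048 between these and WT ES, and 0.233 to 0.422 between KO stages. Over the 84 members alone the correlations were stronger in most pairs. Between WT and KO they were 0.794, -0.271, -0.453 and 0.164 from ES to EB8. They were 0.905 to 0.958 between the WT embryoid body stages, -0.637 to -0.523 between these and WT ES, and 0.223 to 0.902 between KO stages. With a replicate block 4, 11 and 46 members passed at EB4, EB5 and EB8 and 1 for the interaction from EB4, and with the block nested in genotype 5 and 2 for the interactions from ES and EB4 and 18 from EB4 in WT. A replicate block with the KO numbers exchanged, added after seeing the data, gave 8 at EB5 and 43 at EB8.

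Of 53 calls of single named genes, 11 passed under each of their alternatives, among them those of Rpl10l and Rps4y2 at EB8 between genotypes, and in 1052 repeats 305 lost the threshold and 1 changed sign. With 2 libraries per group, and depth no lower than 22442118 reads, the spread between libraries and not counting error limits the values of the abundant members. For members at low counts, such as Rpl39l with 34.7 and 5.3 normalised counts in WT EB8, counting error matters as well.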
